A study of Mus musculus with 208 samples.

Results

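The 41 genes described here encode glucose and monocarboxylate transporters, glycolytic enzymes, the enzymes of lactate and pyruvate and the enzymes of the tricarboxylic acid (TCA) cycle. They were taken by symbol from the raw count matrices of 4 brain regions, each of which lists 46403 genes, and were counted by role as 4 transporters, 18 glycolysis genes, 10 genes of lactate and pyruvate and 9 TCA cycle genes. Each library was made from nuclear RNA of about 5000 nuclei sorted for NeuN, a neuronal nuclear protein, from hypothalamus, hippocampus, prefrontal cortex or striatum of adult wild-type C57BL/6NTac mice of both sexes. Dams carried a minipump that released morphine (MOR) at 10 mg/kg/day or saline (SAL), their pups went to drug-naive surrogate mothers soon after birth and were injected with morphine at 10 mg/kg or with saline from postnatal day 1 to 14, and as adults the offspring received lipopolysaccharide (LPS, a bacterial cell wall component that provokes an innate immune response) or saline 2 h before tissue was taken. Conditions are written with the perinatal exposure first and the adult challenge second: saline-exposed animals were SAL-SAL or SAL-LPS, and morphine-exposed animals MOR-SAL or MOR-LPS. Every pup, control pups included, was injected and cross-fostered, so no group was free of handling, and no animal received morphine after the second postnatal week.

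Neurons take up glucose mainly through GLUT3 (Slc2a3) and glia and endothelium mainly through GLUT1 (Slc2a1). Glycolysis converts glucose to pyruvate, which lactate dehydrogenase interconverts with lactate, and which the mitochondrial pyruvate carrier and the pyruvate dehydrogenase complex pass on to the TCA cycle. Pyruvate dehydrogenase kinases (Pdk genes) switch that complex off by phosphorylation. Several steps are served by isozymes from different genes, such as hexokinases, phosphofructokinases, aldolases and enolases, and Aldoc is the aldolase typical of astrocytes.

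The results on the immune challenge turned on 4 members, and the 250 bases upstream of their RefSeq starts are printed because those genes were the ones that moved (RefSeq, GRCm38.p6, the sequence assembly that mm10 represents). The sequences are written 5′ to 3′ on the coding strand, and capitals mark ACGTG on either strand (read as ACGTG or CACGT, overlaps counted separately), the core letters of hypoxia and E-box type elements. Slc2a1 lies on chromosome 4 (mm10, 119108711 to 119137983, forward strand), and its window was chr4:119108495-119108744. Gpi1 lies on chromosome 7 (34201330 to 34230336, reverse strand), and its window was chr7:34230337-34230586. Aldoc (78322968 to 78327781, forward strand) and Pdk2 (95026258 to 95041354, reverse strand) both lie on chromosome 11, with the windows chr11:78322823-78323072 and chr11:95041372-95041621, and for these genes the first of 2 listed promoters is shown. The gene positions are those of GENCODE, whose starts for Slc2a1 and Aldoc lie upstream of the RefSeq starts, so both windows run into the gene span given here.
Slc2a1: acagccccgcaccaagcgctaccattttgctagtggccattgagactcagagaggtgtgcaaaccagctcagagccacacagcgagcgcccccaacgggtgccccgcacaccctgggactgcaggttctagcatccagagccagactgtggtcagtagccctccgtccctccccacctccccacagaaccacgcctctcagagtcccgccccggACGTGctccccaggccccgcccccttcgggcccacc
Gpi1: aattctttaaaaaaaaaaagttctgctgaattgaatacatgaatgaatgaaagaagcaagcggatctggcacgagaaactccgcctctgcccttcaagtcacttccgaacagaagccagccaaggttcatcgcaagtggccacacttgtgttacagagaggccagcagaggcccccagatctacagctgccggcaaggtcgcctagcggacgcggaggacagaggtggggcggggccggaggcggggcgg
Aldoc: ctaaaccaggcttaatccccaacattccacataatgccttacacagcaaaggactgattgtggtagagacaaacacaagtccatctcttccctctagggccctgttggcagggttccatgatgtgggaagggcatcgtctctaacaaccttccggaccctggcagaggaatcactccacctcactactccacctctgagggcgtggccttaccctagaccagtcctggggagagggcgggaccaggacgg
Pdk2: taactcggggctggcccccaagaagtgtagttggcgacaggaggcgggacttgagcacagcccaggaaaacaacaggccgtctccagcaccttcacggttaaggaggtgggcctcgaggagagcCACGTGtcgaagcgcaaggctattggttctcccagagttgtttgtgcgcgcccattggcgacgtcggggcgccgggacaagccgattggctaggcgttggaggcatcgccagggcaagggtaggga
The Slc2a1 window held the motif once, with its first base 36 bases before the RefSeq start, and the Pdk2 window held CACGTG, which reads the motif on both strands. The windows of Gpi1 and Aldoc did not contain these letters. Of the 38 members matched to the table, 14 held the motif (36.8%), against 16.6% of all 32851 promoters searched, which is a description of letters and was not tested.

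The 208 libraries came from 71 animals. The first part of their replicate numbers takes 18 values, each under 1 perinatal exposure and all but 1 of them in 1 sex, and what it marks is not given in the sources used here (number groups below). There were 51 libraries of hypothalamus, 55 of hippocampus, 48 of prefrontal cortex and 54 of striatum, and 8 to 18 per condition and region. Total counts per library had medians of 5543589, 9184251, 9667628.5 and 10849923.5 in that order and ran from 7673 to 92945090 over all libraries, and 8 libraries had a total under 0.5 times the median of their region. Those of hypothalamus were all saline-exposed (SAL-SAL 4-3 and 1-1 and SAL-LPS 1-4, the lowest). In 9 libraries the Y-linked genes went against the labelled sex. Oxt and Nr5a1 had a median of 0 in the hypothalamus libraries, and the striatal markers summed to 1090 CPM (counts scaled to a common library total) in prefrontal cortex against 1096 in striatum, and thalamic markers had summed medians of 3994 CPM in striatum, 1899 in prefrontal cortex, 1287 in hippocampus and 547 in hypothalamus. The region labels are used as given, and the part of such tissue in the differences between regions was not tested. Neuronal markers summed to medians of 2314 to 5829 CPM, and glial markers were also counted in every region, as given beside the results that they moved with. Ranked by the members themselves after the data were seen, 1 library per region held the highest value of many members: SAL-SAL 1-1 in hippocampus (18 of 41), SAL-SAL 5-3 in striatum (18), SAL-LPS 1-4 in prefrontal cortex (14) and MOR-LPS 13-2 in hypothalamus (12). None was among the libraries of low total, and some of the values that change without them are given both ways. In sorted bulk nuclei, fewer nuclei of one type and less RNA per nucleus cannot be told apart.

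All 41 members passed the filter (a total count above 10 in the region) in every region, but their levels differed widely. Per kilobase of exon in hypothalamus, where 40 members had a length, the highest median levels were those of Ldhb (lactate dehydrogenase B, 109 CPM per kb), Mdh1 (cytosolic malate dehydrogenase, 107), Pkm (pyruvate kinase, 88.5) and Gapdh (68.4). The lowest were those of the monocarboxylate transporter Slc16a7 (0.951), the glucokinase regulator Gckr (0.802) and hexokinase 2 (Hk2, 0.0908). Hk2 was at 0 in 19 hypothalamic, 22 hippocampal, 25 cortical and 15 striatal libraries. All other levels are normalized CPM, compared for one gene across samples.

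The first question was what the adult immune challenge did to these genes, with the challenge averaged over both perinatal exposures (a contrast added after the data were seen). In each region 1 member of 41 passed, and it was a different gene each time. Slc2a1 rose in hypothalamus, Aldoc in prefrontal cortex and Pdk2 in striatum, and the glycolytic isomerase gene Gpi1 fell in hippocampus. Among all genes tested 4.43% were called in hypothalamus, 3.82% in hippocampus, 1.77% in prefrontal cortex and 1.65% in striatum (edgeR quasi-likelihood test with Benjamini-Hochberg adjustment, FDR 0.05), so 1 of 41 is a share near the background. At an unadjusted p under 0.05 the members numbered 5, 9, 6 and 9, beside 17.2%, 17.5%, 12.3% and 15.9% of all genes, and DESeq2 likewise called 1 member in each region. Without the library of each region that held the most highest values, the members at an unadjusted p under 0.05 numbered 5, 4, 6 and 8. With the number group as a replicate block 0 members passed in any region (adjusted p = 0.188 for Slc2a1, 0.103 for Gpi1, 0.593 for Aldoc and 0.192 for Pdk2).

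In hypothalamus, Slc2a1 lay between 0 and 27.6 CPM (median 15.3, n = 25) after saline and between 0 and 80.8 (median 20.1, n = 26) after LPS. The 2 libraries at 0, SAL-SAL 4-3 and SAL-LPS 1-4, were of low depth. By condition the medians were 8.99 in SAL-SAL, 16.5 in MOR-SAL, 18.0 in SAL-LPS and 20.5 in MOR-LPS, and the groups overlapped, with the highest libraries in MOR-LPS. The log2 fold change (log2FC) was 0.79 ± 0.20 (SE, adjusted p = 0.0127). Neither exposure passed on its own, with 0.79 in SAL-LPS vs SAL-SAL (adjusted p = 0.163) and 0.79 in MOR-LPS vs MOR-SAL (adjusted p = 0.0520). In the other regions the same contrast gave 0.65 in hippocampus (adjusted p = 0.133), 0.16 in prefrontal cortex (0.981) and 0.54 in striatum (0.115). Slc2a1 encodes the transporter of the blood-brain barrier, and among 6 endothelial markers 1 rose in the same hypothalamic contrast, while Cldn5 and Ly6c1 had a median of 0 and the summed level had medians of 15.5 to 21.0 CPM over the 4 conditions. Of the 8 astrocyte markers 4 rose in that contrast and 0 of 8 oligodendrocyte markers did, and in MOR-LPS vs MOR-SAL 6 and 5 of 8 rose. Their part in the Slc2a1 result was not tested.

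Gpi1, glucose-6-phosphate isomerase, was between 152 and 403 CPM (median 199.5, n = 25) in hippocampus after saline and between 92.1 and 230 (median 160, n = 30) after LPS. The 2 groups overlapped between 152 and 230, with the lowest values in LPS libraries and the highest in saline libraries. The log2FC was -0.38 ± 0.089 (SE, adjusted p = 0.0107). It was of like size in both exposures, -0.31 in SAL-LPS vs SAL-SAL (adjusted p = 0.160) and -0.45 in MOR-LPS vs MOR-SAL (0.0688). Outside the hippocampus Gpi1 gave -0.28 in striatum (0.105), -0.26 in prefrontal cortex (0.544) and -0.02 in hypothalamus. Of 7 astrocyte markers 1 rose in the hippocampal contrast, and their part in it was not tested.

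In prefrontal cortex Aldoc ran from 1.88 to 67.0 CPM (median 27.1, n = 22) after saline and from 9.49 to 212 (median 40.3, n = 26) after LPS, so the upper tail moved more than the median. The log2FC was 1.22 ± 0.32 (SE, adjusted p = 0.0338), 5 of 17 fits that left out 1 number group lost the call, and without the libraries against the labelled sex the value was 1.18 (adjusted p = 0.0532). It was also lost without SAL-LPS library 1-4 (1.12, adjusted p = 0.0557), with the filterByExpr filter on low counts (1.19, 0.176) and with limma-voom (0.96, 0.436). The 7 astrocyte markers tested in that region included none that passed, and their summed medians were 432 CPM in SAL-SAL, 294 in MOR-SAL, 324 in SAL-LPS and 415 in MOR-LPS. The Aldoc values outside the cortex were 0.40 in hypothalamus (adjusted p = 0.316), -0.03 in hippocampus and 0.20 in striatum, none of which passed.

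Pdk2, a kinase that inactivates pyruvate dehydrogenase, was between 7.15 and 33.4 CPM (median 12.1, n = 21) in striatum after saline and between 9.64 and 43.5 (median 17.9, n = 33) after LPS. The log2FC was 0.58 ± 0.16 (SE, adjusted p = 0.0389). The call was lost in 15 of 44 fits that left out 1 number group or 1 morphine library (0.47 to 0.67), in the joint fit (adjusted p = 0.0862), with limma-voom (0.0909) and when libraries were scaled by size alone (0.0567). Limma-voom called Hk2 instead (2.15, 0.0435). Pdk2 gave 0.62 in prefrontal cortex (adjusted p = 0.153), 0.37 in hypothalamus (0.246) and 0.07 in hippocampus (0.912). Of 7 astrocyte markers 1 rose in striatum in the same contrast.

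**Figure D1:**
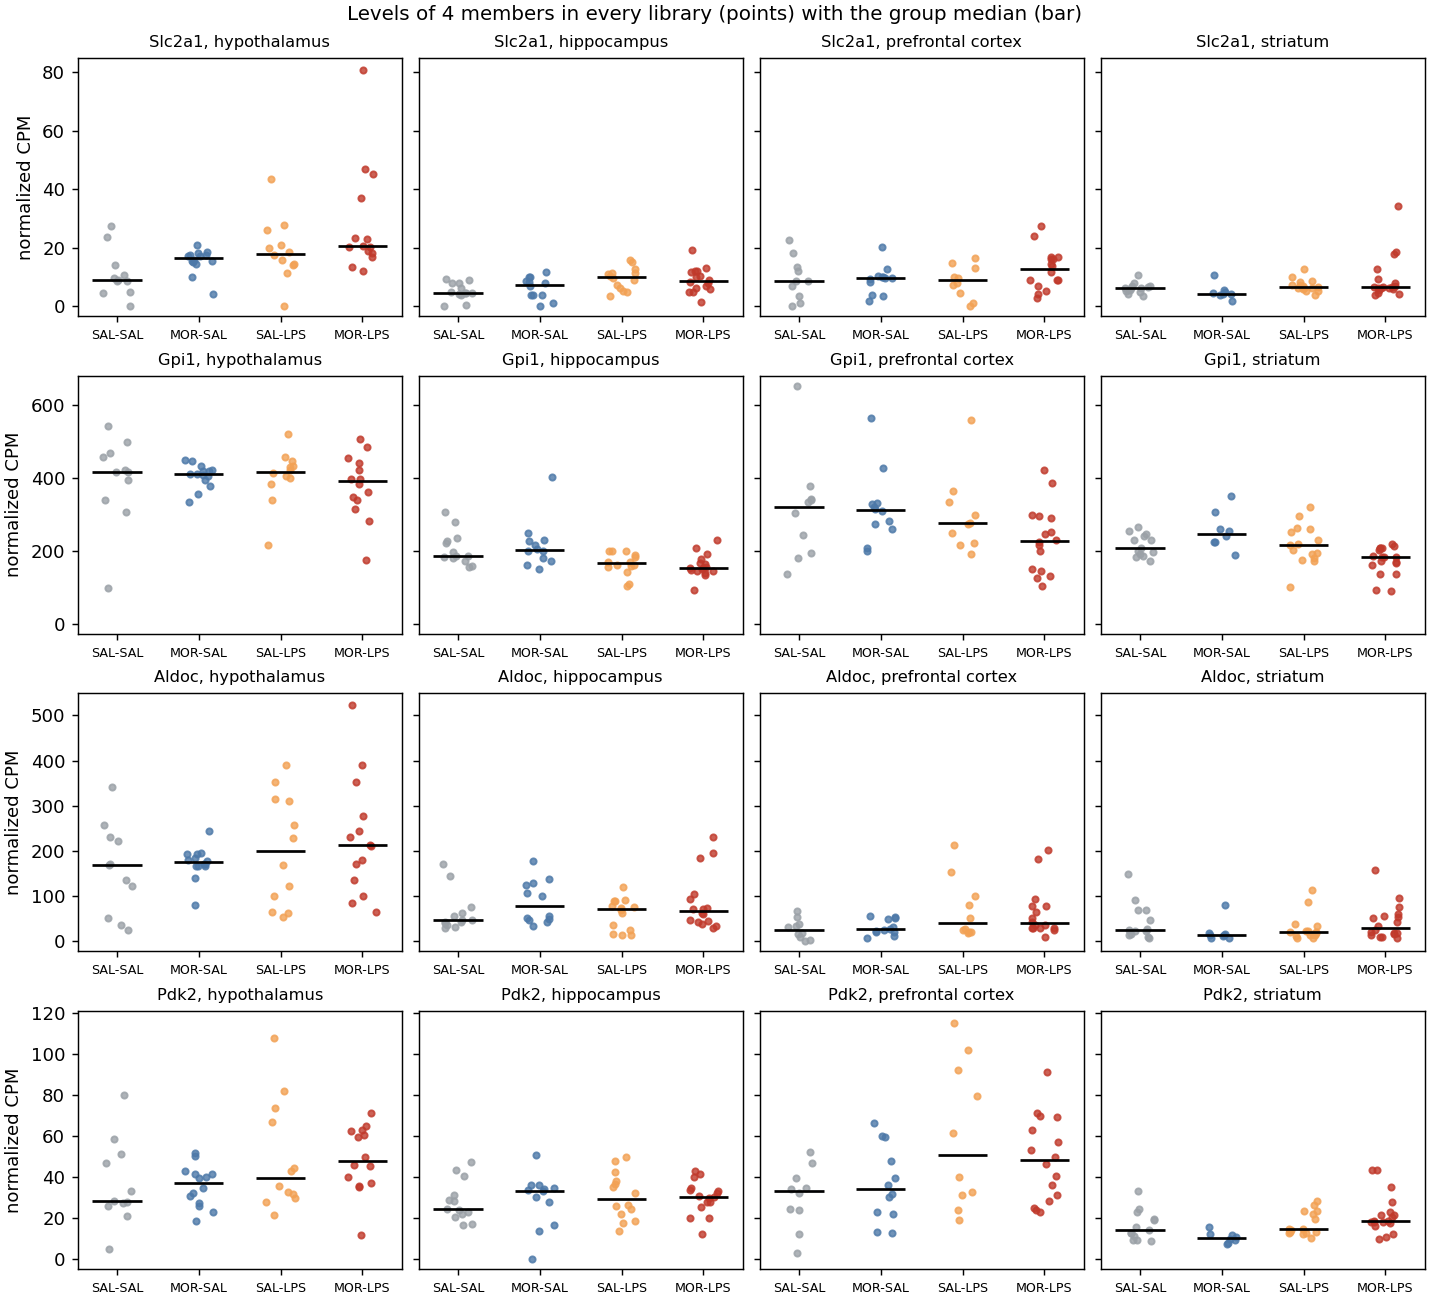
Normalized CPM of Slc2a1, Gpi1, Aldoc and Pdk2 in every library (points), by region and condition, with a bar at the median of each group. The saline and LPS groups overlap in all 4 genes. Hippocampal Gpi1 medians fall from 187 and 204 after saline to 166 and 154.3 after LPS, and striatal Pdk2 is lowest in MOR-SAL.

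When the challenge was taken within each exposure, members passed only in striatum, and only in morphine-exposed animals (MOR-LPS vs MOR-SAL, 2 of 41, background 1.39%). Pdk2 was between 7.15 and 15.8 CPM (median 10.2, n = 8) in MOR-SAL and between 9.64 and 43.5 (median 18.5, n = 18) in MOR-LPS, and the groups overlapped between 9.64 and 15.8. Its log2FC was 1.04 ± 0.24 (SE, adjusted p = 0.0237), and SAL-LPS vs SAL-SAL gave 0.12. Gpi1 went the other way, from 188 to 350 CPM (median 247) in MOR-SAL to 91.2 to 221 (median 183) in MOR-LPS, a log2FC of -0.56 ± 0.14 (SE, adjusted p = 0.0332), against 0.01 in SAL-LPS vs SAL-SAL. The difference between exposures did not pass for either gene, at 0.92 for Pdk2 (adjusted p = 0.140) and -0.57 for Gpi1 (0.139). DESeq2 called 4 members, also Slc2a1 (0.95, adjusted p = 0.0311) and Pfkp (-0.31, 0.0460), named after their values were seen. With library size as the only scaling, which raised the median of all genes by 0.18, Gpi1 gave -0.37 (0.201). The number group as a replicate block ended both calls (0.168 for Pdk2 and 0.178 for Gpi1). Limma-voom with a correlation within number groups called Gpi1 (-0.57, 0.0430) and Hk2 (3.48, 0.0164) but not Pdk2 (0.94, 0.0686), and library size called Pdk2 and Slc2a1 (1.17, 0.0371). Striatal Hk2 was near the floor, at 0 to 1.42 CPM (median 0) in MOR-SAL and 0 to 9.26 (median 1.16) in MOR-LPS, and edgeR gave 2.80 (adjusted p = 0.167).

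The MOR-SAL arm of striatum had 8 libraries, and the calls depended on single ones: leaving out 1 number group or 1 morphine library at a time gave 0.83 to 1.21 for Pdk2, with the call lost in 5 of 44 fits, and -0.62 to -0.39 for Gpi1, lost in 11 of 44. In the same contrast 4 of 7 astrocyte markers rose, with a summed level of 120 to 485 CPM (median 198) in MOR-SAL and 105 to 1169 (median 362) in MOR-LPS. Their part in the Pdk2 and Gpi1 results was not tested.

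No member passed in the 7 other single-exposure LPS contrasts, in which edgeR at an unadjusted p under 0.05 gave 1 to 10 members (11.7% to 20.5% of all genes) and DESeq2 called 1 in hypothalamus (Slc2a1, MOR-LPS vs MOR-SAL), 1 in prefrontal cortex (Pfkm, SAL-LPS vs SAL-SAL) and 0 in the rest. The background there was 0.246% (hypothalamus, SAL-LPS vs SAL-SAL), 6.27% (hypothalamus, MOR-LPS vs MOR-SAL), 2.55% and 0.467% (hippocampus), 0% and 0.0184% (prefrontal cortex) and 0.0128% (striatum, SAL-LPS vs SAL-SAL). In hypothalamic MOR-LPS vs MOR-SAL, where the background was highest, 6 of 8 astrocyte markers rose (summed level 95.7 to 223 CPM, median 139, in MOR-SAL and 140 to 1855, median 684, in MOR-LPS) and 5 of 8 oligodendrocyte markers, and the median log2FC of the members was 0.04 against 0.00 over all genes (0.11 against 0.07 with DESeq2 size factors and -0.05 against -0.07 with library size as the only scaling, so its sign depended on the scaling).

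In hippocampal SAL-LPS vs SAL-SAL 10 of 41 members had a log2FC above 0, and the members' median was -0.25 against 0.00 over all genes. By role, 0 of 9 TCA cycle genes (median -0.26), 4 of 18 glycolysis genes (-0.26), 4 of 10 genes of lactate and pyruvate (-0.06) and 2 of 4 transporters (0.05) were above 0. These counts rested in part on SAL-SAL library 1-1, in which Mdh1 was 777 CPM and Mdh2 343, against at most 208 and 107 in the rest of its group. Without it 14 of 41 members were above 0 (median -0.10 against 0.02), among them 2 of 9 TCA cycle genes (median -0.25) and 5 of 18 glycolysis genes (-0.09), and Mdh1 turned from -0.16 to 0.14 and Mdh2 from -0.22 to 0.11. No member passed with or without it, and the smallest p was that of Pfkl, the liver-type phosphofructokinase, at -0.49 (adjusted p = 0.0838). In morphine-exposed animals of that region 20 of 41 were above 0 (median -0.01 against 0.02, and 24 of 41 with a median of 0.07 against 0.11 when library size was the only scaling), and the smallest p was that of Gpi1 (-0.45). The interaction of exposure and challenge had a members' median of 0.12 against 0.01 (-0.03 against 0.01 without library 1-1) and called 0 of 41 (background 2.35%, 4 members at an unadjusted p under 0.05 beside 12.8% of all genes, 0 by DESeq2), so the contrast between exposures was not established for any member. In striatum 11 of 41 were above 0 in saline-exposed animals (median -0.24 against 0.01, and 16 of 41 with a median of -0.11 against 0.03 without SAL-SAL libraries 3-0 and 5-3), where the smallest p was that of citrate synthase (Cs, -0.51, adjusted p = 0.271), and 30 of 41 were above 0 in morphine-exposed animals (median 0.12 against 0.11). In prefrontal cortex 28 of 41 were above 0 in saline-exposed and 23 in morphine-exposed animals (medians 0.08 against -0.01 and 0.04 against 0.06). The saline-exposed count was 19 of 41 (median -0.03) without SAL-LPS library 1-4. In that region the smallest p values were those of Pfkm (0.86, adjusted p = 0.103) and Aldoc (1.01, 0.230).

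**Figure D2:**
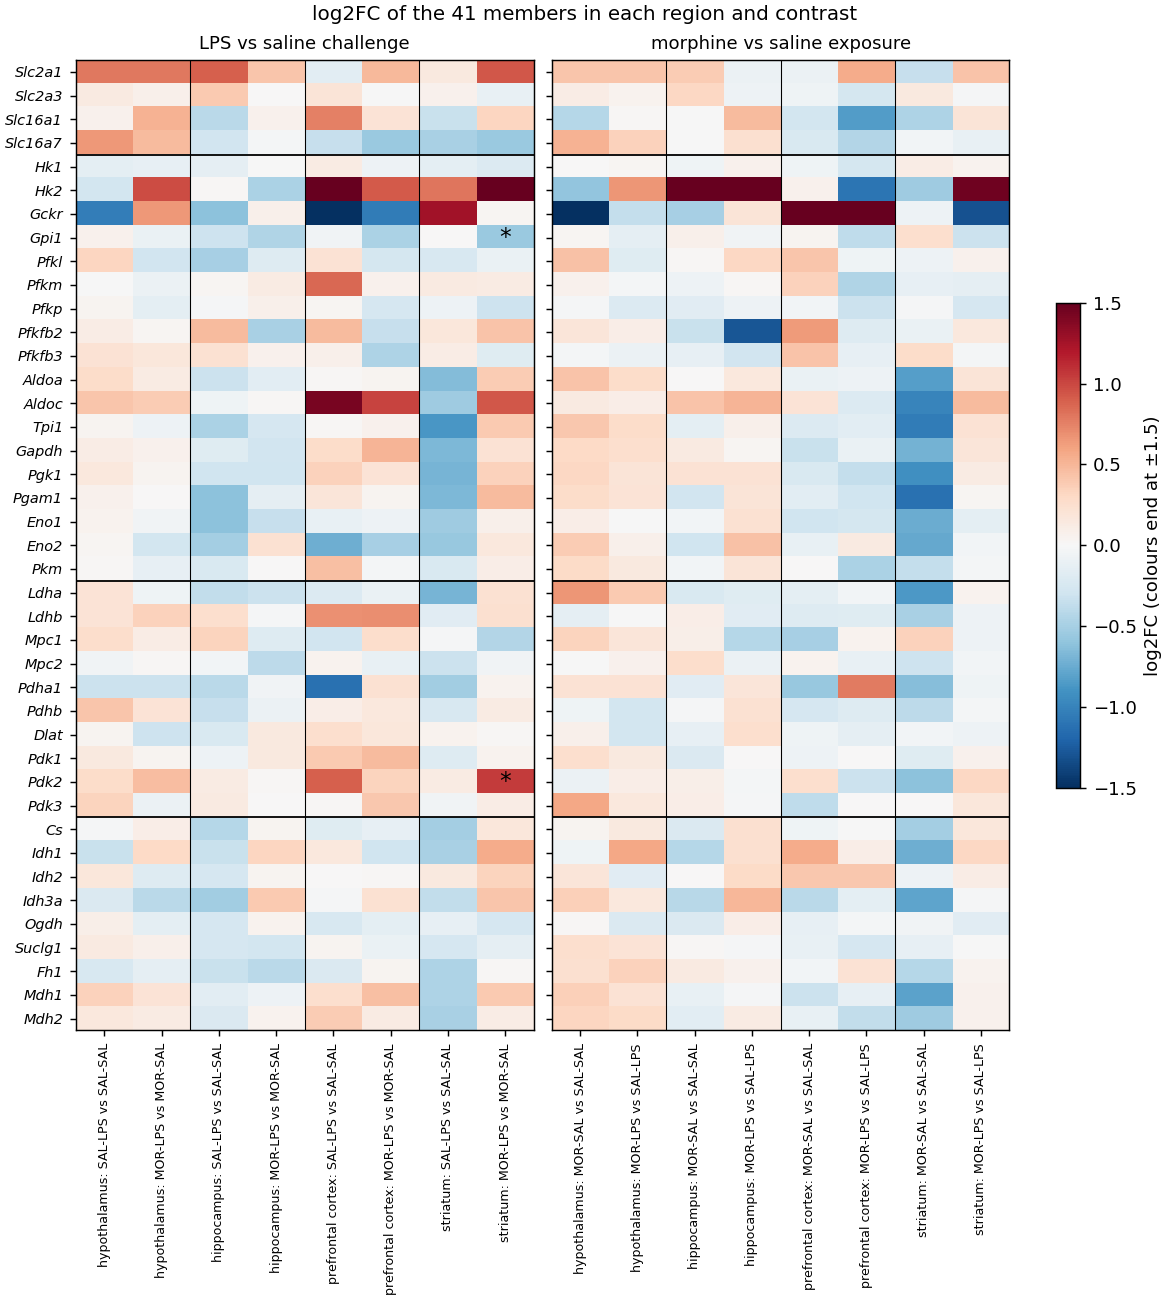
Heat map of the log2FC of all 41 members (rows, by role) in each region (columns) for the LPS contrasts on the left and the morphine contrasts on the right, with colours ending at 1.5 in either direction and an asterisk on each call at FDR 0.05. The only asterisks are those of striatal Pdk2 and Gpi1 in MOR-LPS vs MOR-SAL. Contrasts averaged over both exposures or both challenges are not drawn. Hippocampal SAL-LPS vs SAL-SAL is mostly below 0.

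The second question was what perinatal morphine left in the adult. No member passed in MOR-SAL vs SAL-SAL in any region by edgeR or by DESeq2, with 5 members at an unadjusted p under 0.05 in hypothalamus, 1 in hippocampus, 1 in prefrontal cortex and 9 in striatum, beside 17.3%, 10.3%, 10.1% and 11.5% of all genes. The background was 1.44% in hypothalamus and 0% in the other 3 regions. In hypothalamus 31 of 41 members were above 0 (median 0.19 against 0.07 over all genes, 26 of 41 with 0.15 against 0.03 with DESeq2 size factors, and 37 of 41 with 0.31 against 0.19 with library size), including 8 of 9 TCA cycle genes (median 0.25) and 14 of 18 glycolysis genes (median 0.16). In the same contrast 27 of 28 cytosolic ribosomal protein genes were above 0 (median 0.65, 1 called). The share of reads in the transcript Gm26917 had a median of 18.71% in SAL-SAL and 13.35% in MOR-SAL, and its part in these counts was not tested. In striatum the members lay the other way, with 6 of 41 above 0 and a median of -0.39 against -0.07. SAL-SAL libraries 3-0 and 5-3 stood high there, with 584.5 and 603 CPM of Mdh1 and 156 and 144 of Idh3a. Without both, 8 of 41 were above 0, the median was -0.24 against -0.06, 1 member had an unadjusted p under 0.05, and Mdh1 moved from -0.80 to -0.42. The lowest p outside the hypothalamus was that of Slc2a3 in hippocampus (0.31, adjusted p = 0.426), Gckr in prefrontal cortex (4.27, 0.172) and Idh3a, a subunit of the NAD-dependent isocitrate dehydrogenase, in striatum (-0.79, 0.291, and -0.50, 0.544 without those 2 libraries).

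Ldha and Gckr are given in full for the hypothalamus by the rule for named genes. The study reported Ldha in MOR-SAL vs SAL-SAL as both differentially expressed and differentially marked by H3K27ac, a histone acetylation. The fits made here did not call its RNA in that contrast. Ldha, lactate dehydrogenase A, was 12.6 to 159 CPM (median 87.5, n = 11) in SAL-SAL, 77.4 to 182 (median 156, n = 14) in MOR-SAL, 0 to 232 (median 92.5, n = 12) in SAL-LPS and 47.7 to 235 (median 129, n = 14) in MOR-LPS. The value of 0 is that of SAL-LPS library 1-4, which had 7673 counts in total. Morphine-exposed medians were higher under both challenges but the ranges overlapped, and the log2FC was 0.66 ± 0.24 (SE, adjusted p = 0.117) after saline, 0.39 (0.527) after LPS and 0.52 (0.0791) over both. Gckr, the inhibitor of glucokinase, was 0 to 94.9 CPM (median 6.88) in SAL-SAL and 1.43 to 19.7 (median 2.61) in MOR-SAL, a log2FC of -2.04 ± 0.61 (SE, adjusted p = 0.0610), and -0.36 (0.917) after LPS, where SAL-LPS ran from 0 to 38.8 (median 3.79) and MOR-LPS from 0 to 37.1 (median 6.50). Leaving out number group 1, 4 or 6 brought members past the threshold in MOR-SAL vs SAL-SAL, with a count of 0 to 2, and Gckr passed without the low-depth libraries. Over the number groups left out in turn, Gckr ran from -2.31 to -1.26 (edgeR, adjusted p = 0.024 to 0.375).

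In MOR-LPS vs SAL-LPS no member passed in any region by edgeR or DESeq2 (0, 4, 2 and 4 members at an unadjusted p under 0.05 in hypothalamus, hippocampus, prefrontal cortex and striatum, beside 13.9%, 17%, 13% and 11.2% of all genes; background 1.03%, 2.73%, 0.0046% and 0%). The smallest p values there were those of Dlat, a pyruvate dehydrogenase subunit, in hypothalamus (-0.27, adjusted p = 0.456), the pyruvate carrier Mpc1 in hippocampus (-0.43, 0.171), Gckr in prefrontal cortex (4.72, 0.133) and the platelet-type phosphofructokinase Pfkp in striatum (-0.25, 0.181).

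Averaged over both challenges (also added after the data were seen), morphine called 1 of 41 members in prefrontal cortex (background 1.22%) and 0 in hypothalamus (2.3%), hippocampus (2.35%) and striatum (0.00427%), where 4, 2 and 2 members had an unadjusted p under 0.05 (14%, 12% and 7.73% of all genes) and DESeq2 called 0. The cortical call was Gckr at 4.50 ± 1.00 (SE, adjusted p = 0.0242), and it rested on values near the floor of detection. In SAL-SAL 1 of 10 libraries was above 0, at 0.668 CPM, and SAL-LPS reached 0.0829, whereas MOR-SAL reached 2.88 and MOR-LPS 4.31 with a median of 0.339. DESeq2, the filterByExpr filter (which left it out) and limma-voom did not call it. The lowest p elsewhere was that of Ldha in hypothalamus, Hk2 in hippocampus (1.74, adjusted p = 0.222) and Idh3a in striatum (-0.40, 0.520).

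The interaction of exposure and challenge called 0 of 41 in every region by edgeR and by DESeq2, against backgrounds of 3.8% in hypothalamus, 1.78% in prefrontal cortex and 0.00854% in striatum beside that of hippocampus. At an unadjusted p under 0.05 there were 1, 4, 1 and 9 members, beside 15.6%, 12.8%, 11.5% and 14.8% of all genes, and the 9 in striatum became 4 without SAL-SAL library 5-3. The lowest p in hypothalamus was that of Pfkl (-0.62, adjusted p = 0.0613) and in hippocampus that of Idh3a (0.91, 0.110). In cortex it was Pfkm (-0.80, 0.166), the muscle-type phosphofructokinase. Pfkm there was 48.6 to 184 CPM (median 132) in SAL-SAL, 128 to 242 (median 166) in MOR-SAL, 136 to 636 (median 223) in SAL-LPS and 106 to 283 (median 183) in MOR-LPS. In a joint fit of the 4 regions, Pfkm was also the 1 member whose LPS response differed between regions (hypothalamus minus prefrontal cortex -0.52 ± 0.14, SE, adjusted p = 0.0230; background 1.48%), with 0.45 in cortex and -0.07 in hypothalamus. That call was not made with the animal as a replicate block, nor without the 4 libraries that held the most highest values (-0.39, adjusted p = 0.107), where Slc16a7 passed for hypothalamus minus striatum (1.07, 0.0366). In the 5 other region pairs 0 members differed in their LPS response (backgrounds 1.59%, 0.959%, 1.19%, 0.731% and 0.621%).

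Females and males differed in 1 member by edgeR. Hippocampal Idh2, the mitochondrial NADP-dependent isocitrate dehydrogenase (chromosome 7, 80094846 to 80115392), was 16.4 to 53.4 CPM (median 28.3, n = 27) in males and 11.2 to 62.4 (median 41.01, n = 28) in females, a log2FC of 0.45 ± 0.12 (SE, adjusted p = 0.0242, background 2.51%). The other regions gave 0.36 in prefrontal cortex (adjusted p = 0.475), 0.20 in striatum (0.460) and 0.08 in hypothalamus (0.888), and the hippocampal call was lost with the filterByExpr filter or without number group 3 or 15, and with limma-voom and a correlation within number groups (0.43, adjusted p = 0.103). All but 1 number group held a single sex. No member passed in hypothalamus (3.45%), prefrontal cortex (0.709%) or striatum (0.841%), with 8, 6 and 5 members at an unadjusted p under 0.05 (15.6%, 12.7% and 13% of all genes) and 1 by DESeq2 (hypothalamic Slc2a1). The lowest p in prefrontal cortex was that of Pgam1 (-0.79, adjusted p = 0.251) and in striatum that of Pfkp (-0.22, 0.0983). The lowest hypothalamic p was that of phosphoglycerate mutase (Pgam1), which was 17.5 to 153.9 CPM (median 75.1) in males and 15.4 to 99.6 (median 63.0) in females, at -0.51 (adjusted p = 0.0520). The X-linked members Pgk1, Pdha1 and Pdk3 gave -0.37, -0.53 and -0.52 there (adjusted p = 0.109, 0.123 and 0.12). In hypothalamus 7 of 8 oligodendrocyte, 4 of 8 astrocyte and 3 of 8 microglial markers were higher in females, and their part in these values was not tested.

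Regions differed far more than conditions did. The joint fit behind the counts below had no term for the animal, so libraries of the same animal were treated as independent. Between prefrontal cortex and striatum 24 of 41 members passed (18 higher in cortex; background 31.2% of 32841 genes), between hippocampus and prefrontal cortex 24 (9 higher in hippocampus; 27.3%) and between hippocampus and striatum 21 (12 higher in hippocampus; 28.4%). Of the 18 glycolysis genes 11 were higher in cortex than in striatum and 2 lower, and of the 9 TCA cycle genes 2 were higher and 0 lower. Cytosolic ribosomal protein genes, scaled within each region, had summed medians of 853 CPM in cortex, 534.5 in hippocampus and 350 in striatum. A shift shared with them was not tested. In the order of the 3 regions, prefrontal cortex was the highest for 17 members and the lowest for 14, hippocampus the highest for 13 and the lowest for 7, and striatum the highest for 11 and the lowest for 20. In SAL-SAL libraries alone, which are fewer, 5, 6 and 2 members passed.

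Among transporters, Slc16a7 (MCT2, the neuronal monocarboxylate transporter) had medians of 87.8 CPM in hippocampus, 49.0 in prefrontal cortex and 52.8 in striatum, a log2FC of 0.81 ± 0.14 (SE, adjusted p = 8.6e-07) over cortex and 0.71 over striatum, and cortex and striatum did not differ beyond their spread (-0.10). Slc2a3 was highest in cortex (105.5 CPM) against hippocampus (66.2, -0.63) and striatum (76.6; 0.45). Among glycolysis genes Pfkl had medians of 104 and 107 CPM in hippocampus and cortex, which did not differ (-0.02), and 46.2 in striatum, a log2FC of 1.18 and 1.2 over striatum.

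Ldha was highest in cortex (140 CPM), with 73.6 in hippocampus and 46.3 in striatum: the log2FC was -1.08 ± 0.16 (SE, adjusted p = 9.9e-09) for hippocampus over cortex and 1.47 for cortex over striatum, and hippocampus and striatum did not differ past the threshold (0.39). Pdk2 followed the same order, with 40.3, 29.9 and 16.3 CPM, and log2FC values of -0.61, 0.80 and 1.41 for hippocampus over cortex, hippocampus over striatum and cortex over striatum. Of the TCA cycle genes Mdh2, mitochondrial malate dehydrogenase, was lower in striatum (45.5 CPM) than in hippocampus (77.9, 0.47) and cortex (68.6, 0.51). Ogdh, a subunit of the oxoglutarate dehydrogenase complex, ran the other way, with 235.5 CPM in hippocampus, 282 in cortex and 310 in striatum (-0.27 and -0.41 for hippocampus over the others). Gckr was near 0 in cortex (median 0 CPM) against 1.62 in hippocampus and 4.42 in striatum.

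**Figure D3:**
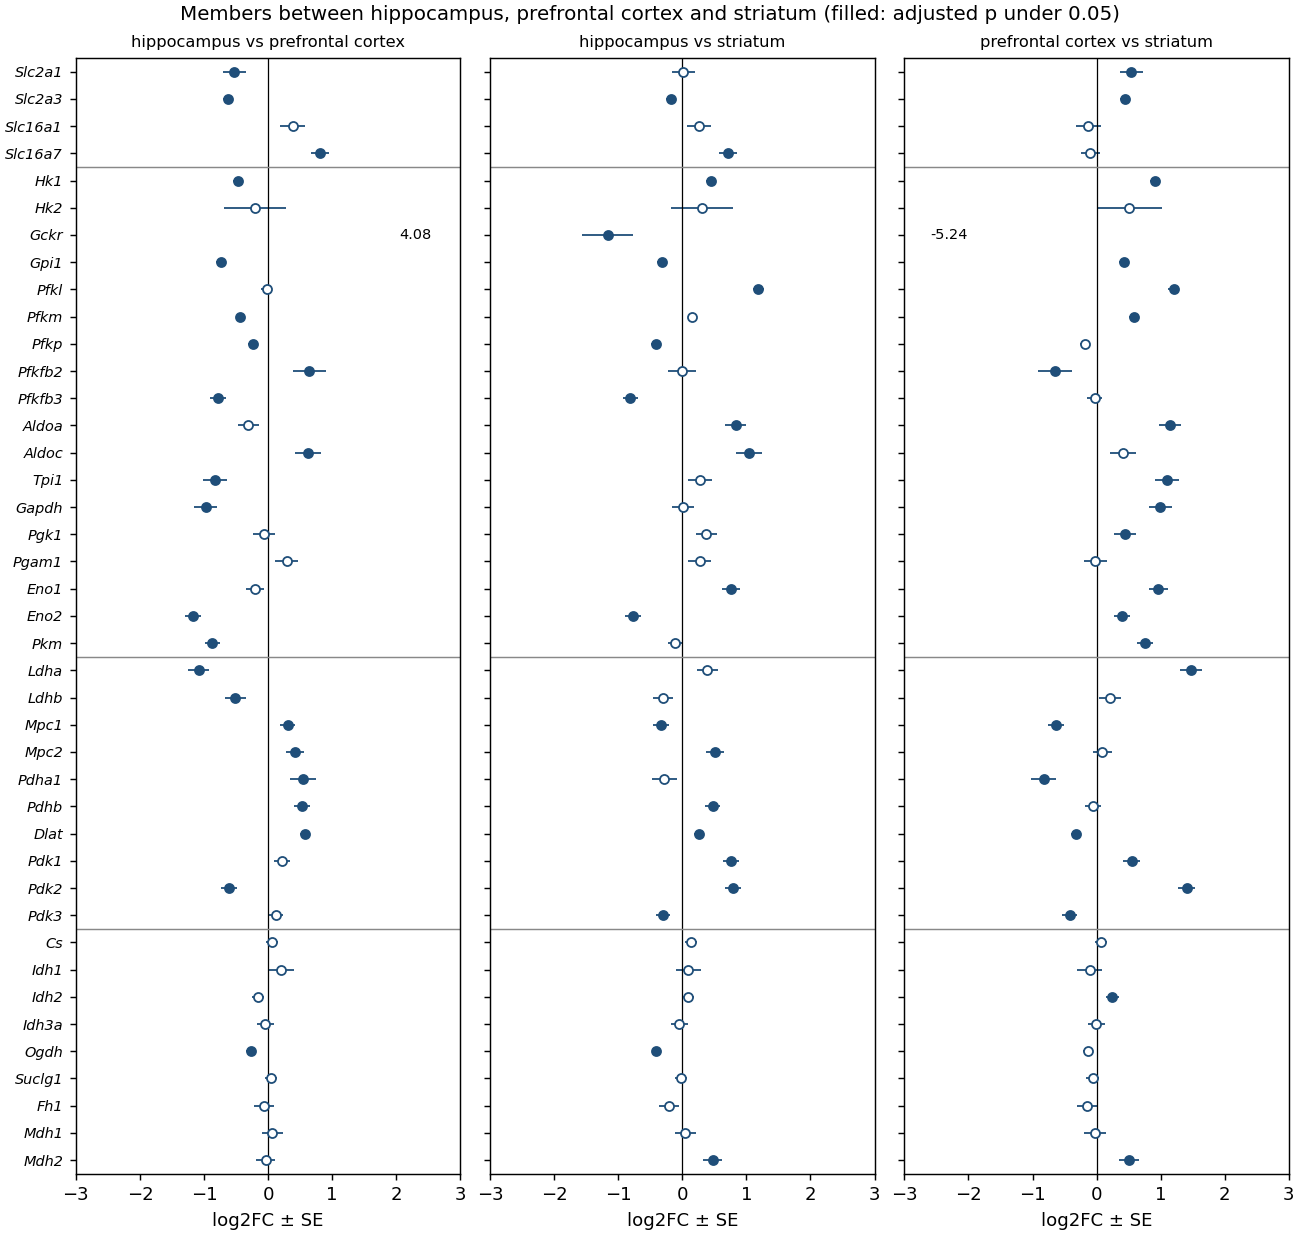
The log2FC ± SE of each member for hippocampus, prefrontal cortex and striatum in pairs, with filled points for calls at FDR 0.05. Glycolysis genes are mostly right of 0 for cortex over striatum (11 higher, 2 lower), 2 of 9 TCA cycle genes are called in that pair, and the Gckr values beyond the axis are written as numbers.

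The hypothalamus stood apart from the other regions in 24, 30 and 34 members (against hippocampus, prefrontal cortex and striatum), but so did 62.1%, 63.3% and 63.7% of all genes. Its table also differed in which genes had counts: of 12491 genes with at least 5 CPM there, 1529 had a median of 0 in the other 3, among them Xist (12.1 against 0) and Yod1 (12.4 against 0), whereas Gm20388 had 0 there and 255 to 338 elsewhere. The study's methods describe a single counting procedure for all regions, but the tables differ in this way, so region and counting cannot be told apart for these pairs. Across genes, the log2FC of the hypothalamus over the others fell with gene span (Spearman rho -0.47 to -0.67), which is a description over genes that are not independent replicates. The members showed it less (rho -0.12 to -0.33 over 40 members).

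With that limit, Slc16a7 had a median of 11.3 CPM in hypothalamus and a log2FC of -2.82, -2.01 and -2.11 against the other regions, and Mpc1, a subunit of the mitochondrial pyruvate carrier, had 11.2 CPM and -1.63, -1.32 and -1.96. Slc2a1 was higher in hypothalamus by 1.08, 0.55 and 1.09 (-0.14 against cortex in SAL-SAL libraries alone), and Pdha1, the catalytic subunit of pyruvate dehydrogenase, by 0.89, 1.44 and 0.61. The TCA cycle genes Fh1 (fumarase; 1.2, 1.14 and 0.99) and Idh2 (0.99, 0.84 and 1.08) were also higher. Pfkfb2, which makes and breaks down the phosphofructokinase activator fructose 2,6-bisphosphate, had 39.7 CPM against 0.875 to 1.49 (4.72, 5.37 and 4.72), and 19.5% of its exon bases overlap other genes, Yod1 among them, so its value is uncertain. The overlap was 23.05% for Mpc1 (4930506C21Rik) and 16.15% for Pdha1 (Map3k15), both with a gene on the opposite strand, so their values are uncertain too. Gckr had 3.48 CPM and gave 1.56 and 5.64 against hippocampus and cortex, and did not differ from striatum past the threshold (0.39).

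Ratios of isozymes within a library do not depend on library scaling, so they were compared between regions of the same animal for 10 pairs of genes and 6 pairs of regions (sign-flip permutation test of the mean log2 ratio difference, two-sided, 100000 resamples, adjusted over 60 tests). Of these, 42 passed (21 in SAL-SAL animals alone): 7, 9 and 7 of 10 for the hypothalamus against hippocampus, cortex and striatum, where region and counting cannot be told apart, and 4, 7 and 8 of 10 for hippocampus over cortex, hippocampus over striatum and cortex over striatum. Where 1 gene of a pair is at 0, as Hk2 often was, the ratio is set by the count offset and by depth. The Hk1/Hk2 calls (hypothalamus against cortex, and hippocampus and cortex against striatum) carry that limit. The phosphofructokinase pair Pfkl/Pfkp had mean log2 ratios of -0.86 ± 0.76 (SD, n = 55) in hippocampus, -1.06 ± 0.58 (n = 48) in cortex and -2.47 ± 0.41 (n = 54) in striatum. The ratio was higher in cortex than in striatum in 35 of 35 animals (mean difference 1.36 ± 0.72, SD, permutation p = 2e-05, adjusted 5.2e-05) and higher in hippocampus than in striatum in 41 of 42 (1.55 ± 0.78, same p, the smallest that the resamples give), and hippocampus and cortex did not differ past the threshold (0.16, permutation p = 0.332).

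Ldha/Ldhb, the balance of the lactate dehydrogenase subunits, had mean log2 ratios of -0.97 ± 0.63 in hippocampus, -0.38 ± 0.62 in cortex and -1.83 ± 0.84 in striatum (SD). Cortex exceeded striatum by 1.5 ± 0.97 (SD) in 34 of 35 animals and hippocampus exceeded striatum by 0.89 ± 0.92 in 33 of 42, and hippocampus was higher than cortex in 8 of 36. Eno1/Eno2, ubiquitous over neuronal enolase, was 1.40 ± 0.85 in hippocampus, 0.41 ± 1.14 in cortex and -0.28 ± 0.51 in striatum (SD), and hippocampus was higher than striatum in 41 of 42 animals (1.57 ± 0.84). Aldoa/Aldoc was higher in cortex (3.74 ± 1.08) than in hippocampus (2.79 ± 0.65) and striatum (2.94 ± 0.82), whereas Pdk1/Pdk2 was lower in cortex (-1.07 ± 1.41) than in hippocampus (-0.06 ± 0.68) and striatum (-0.13 ± 0.75). Mdh1/Mdh2, cytosolic over mitochondrial malate dehydrogenase, was higher in cortex than in striatum in 4 of 35 animals (mean difference -0.57 ± 0.67, SD). Slc16a1/Slc16a7 was higher in hypothalamus than in the other regions by 3.28, 3.39 and 2.96, under the limit on that table given above.

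**Figure D4:**
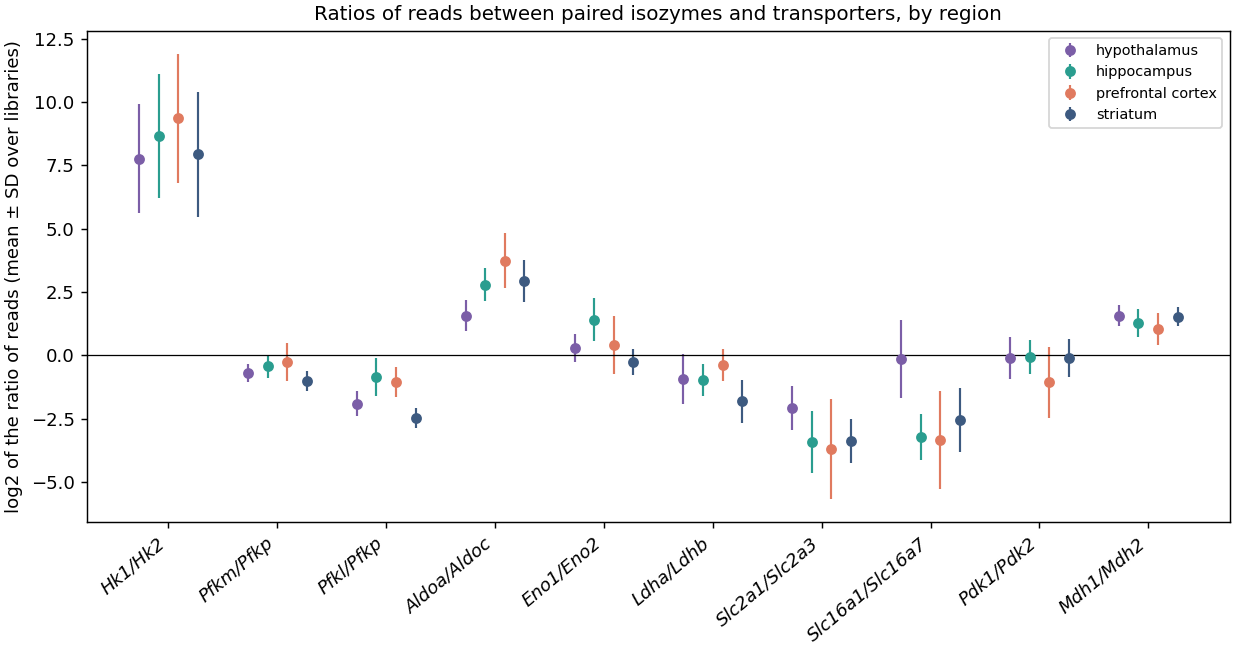
Mean log2 ratio of 10 isozyme pairs in each region, with bars of 1 SD over libraries. Pfkl/Pfkp, Ldha/Ldhb and Eno1/Eno2 are lowest in striatum, at -2.47, -1.83 and -0.28.

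Other genes of the pathway, a list of 72 that includes further transporters, glycolysis and gluconeogenesis, pyruvate and TCA cycle genes, the pentose phosphate route, glycogen and the redox shuttles, were tested in numbers of 70, 69, 68 and 70. They passed in 0 to 3 cases per region and contrast. In hypothalamus 2 of 70 passed in MOR-SAL vs SAL-SAL (background 1.44%), 1 in SAL-LPS vs SAL-SAL (0.246%), 2 in the interaction (3.8%) and 2 in MOR-LPS vs MOR-SAL (6.27%). In hippocampus 2 of 69 passed in SAL-LPS vs SAL-SAL (2.55%), 1 in MOR-LPS vs MOR-SAL (0.467%) and 3 with LPS over both exposures (3.82%). Striatal MOR-LPS vs MOR-SAL had 1 of 70 (1.39%) and the cortical interaction 1 of 68 (1.78%). In hypothalamus Pdp1, the phosphatase that reactivates pyruvate dehydrogenase, fell by 1.24 on the log2 scale in MOR-SAL vs SAL-SAL (SE 0.24, adjusted p = 0.0036) and by 1.18 in SAL-LPS vs SAL-SAL (adjusted p = 0.0322), with an interaction of 1.2 (0.0318). All of these Pdp1 contrasts share the SAL-SAL group (11 libraries, 2 of low depth), so they are not separate results. Fbp1, a fructose bisphosphatase of gluconeogenesis, fell by 3.34 in MOR-SAL vs SAL-SAL (0.0392).

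In hypothalamic MOR-LPS vs MOR-SAL, the kinase gene Pdk4 rose by 4.71 ± 1.04 (SE, adjusted p = 0.0048) and the glycerol-phosphate shuttle enzyme Gpd1 by 2.77 ± 0.48 (SE, adjusted p = 0.00029), with an interaction of 2.57 for Gpd1 (0.0219). The astrocyte (6 of 8) and oligodendrocyte (5 of 8) markers that rose in the same contrast were given above, and their part in these values was not tested. Pdk4 was 0 to 0.405 CPM (median 0) in MOR-SAL and 0 to 10.5 (median 1.33) in MOR-LPS, so its fold rests on values near the floor, and SAL-SAL reached 13.0. In hippocampus the glucose transporter Slc2a6 (-0.60, adjusted p = 0.0420) and the transketolase Tkt (-0.63, 0.0383) fell in SAL-LPS vs SAL-SAL, and the liver pyruvate kinase Pklr fell in MOR-LPS vs MOR-SAL (-4.07, 0.0459). In striatum the insulin-responsive transporter Slc2a4 rose in MOR-LPS vs MOR-SAL (6.07, 0.0332; 8 MOR-SAL libraries), and in prefrontal cortex the interaction of Pdk4 passed at 9.67 (0.0310) with group medians of 0 in 3 of 4 conditions. Levels of Slc2a4, Pklr and Fbp1 are not given here, so whether their large folds rest on values near the floor is not shown.

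Averaged over both exposures, LPS also called Pdk4 (2.7), Gpd1 (1.49) and Pdp1 (-0.58) in hypothalamus, Slc2a6 (-0.45), Pklr (-2.28) and Tigar (-0.92), a glycolysis-limiting phosphatase, in hippocampus, the glycogen phosphorylase kinase subunit Phka2 (0.79, adjusted p = 0.0049) in prefrontal cortex and Slc2a4 (3.14) in striatum. Morphine, averaged over both challenges, called Pdp1 (-0.64) and Fbp1 (-1.99) in hypothalamus and Fbp2 (2.10) in hippocampus, and Phka1 was higher in females in hypothalamus (0.54). The shares of all genes called in these contrasts are the backgrounds given above for the members.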

How the data were processed

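Nuclear RNA from sorted NeuN+ nuclei was sequenced as paired-end Smart-seq3-type libraries. Per the labels, the authors trimmed reads with Trim Galore 0.6.7, aligned them to mm10 with STAR 2.7.10a, obtained gene counts with STAR and checked them with HTSeq 0.12.4 against a GENCODE annotation, and they deposited 1 table of raw counts per region (46403 genes). Deposited CPM tables were not used. The methods describe a single counting procedure for all regions. Whether molecular identifiers were used is not given in the sources used here.

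In each region, genes with a total count above 10 were fitted with the edgeR 4.0.16 quasi-likelihood test (R 4.3.3, TMM scaling, a term for each of the 4 conditions and for sex), and p values were adjusted (Benjamini-Hochberg) over every gene of the region's fit, with 0.05 as the threshold. Levels are CPM of the scaled library. The 4 tables were also fitted jointly to compare regions. Alternatives were DESeq2 1.42.0, limma-voom (limma 3.58.1) with a correlation within number groups, other filters and scalings, no sex term, the number group as a replicate block, each number group left out and, chosen after the data were seen, the library with the most highest member values left out. Fits were also run on simulated data, whose outcome is not given here and is not used as support. Isozyme ratios used a count offset of 0.5 and at least 20 reads (numpy 2.4.6, scipy 1.17.1). Coordinates follow GENCODE and promoters RefSeq.

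Libraries that share the first part of the replicate number form a number group, and what that number marks is not given. Perinatal exposure was nested in it, so morphine contrasts have no fit within number groups, and sex was nested in it for all but 1 number. The same replicate number in several regions is the same animal. P values treat animals as independent. Those of the main joint fit also treat libraries of the same animal from different regions as independent, whereas the isozyme test pairs them by animal. The members, the other pathway genes and the marker lists were chosen with earlier results of these data known. Given in full were members with an adjusted p under 0.05 in a condition, interaction or sex contrast, otherwise the member with the smallest unadjusted p, Ldha and Gckr in hypothalamus, and between regions the 2 members of each role with the largest difference.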

Additional observations from a re-analysis of the deposited data

Results flagged for a closer look

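In prefrontal cortex, Pfkm reached 635.9 CPM in SAL-LPS replicate 1-4, far from the next of the 10 libraries at 260.6. The Pfkm LPS response differed between hypothalamus and prefrontal cortex by -0.5158 on the log2 scale in the joint fit (-0.39, not past the threshold, without that library and the 3 others that held the highest value of the most members). Gckr was above 0 in 1 of 10 SAL-SAL libraries of prefrontal cortex (replicate 1-3, 0.6684 CPM) and in 1 of 10 SAL-LPS libraries (replicate 1-0, 0.08287 CPM), and these 2 libraries stood apart because all others were at 0, which the zeros alone fix. Of 13 groups of 4 to 10 libraries examined in this way, 1 other, that of Pfkm, held such a library, and chance gives about 1 in 20.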

How the results depend on the processing

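Of 380 counts of members called under the alternatives other than those that leave out each number group or library in turn, 336 stayed within 1.5 times the count reported and 44 did not, and of the 612 with a number group or library left out in turn 557 did. Of the values of single named members, 641 of 707 and 649 of 707 kept direction and side of the threshold. The cause of the changes below was not tested. Libraries sharing the first part of the replicate number (a number group) did not deviate together (estimated correlation -0.049, -0.0030, 0.0035 and 0.029 in hypothalamus, hippocampus, prefrontal cortex and striatum). With the number group as replicate block, a paired fit, the LPS contrast over both exposures called 0 members in each region (adjusted p = 0.188 for Slc2a1, 0.103 for Gpi1, 0.593 for Aldoc and 0.192 for Pdk2, directions as before) and striatal MOR-LPS vs MOR-SAL called 0 (0.168 for Pdk2, 0.178 for Gpi1), and it changed no other count. The LPS contrast over both exposures also called 0 in prefrontal cortex with filterByExpr, with limma-voom and without the libraries against the labelled sex, 4 in cortex (Aldoc, Eno2, Pdk2 and Pfkm) and 0 in striatum in the joint fit, and 0 in striatum with library size as the only scaling. Without the library that held the highest value of the most members, an alternative chosen after the data were seen, LPS over both exposures called 0 in cortex and MOR-LPS vs MOR-SAL called 1 in hypothalamus (Slc2a1). Morphine over both challenges called 1 in hypothalamus (Ldha) with library size or limma-voom, and 0 in prefrontal cortex with DESeq2, filterByExpr or limma-voom. MOR-LPS vs MOR-SAL called 1 in hypothalamus (Slc2a1) with DESeq2, its size factors, no filter, no sex term or without low-depth libraries, and in striatum 4 with DESeq2 and 1 with no filter. Striatal counts that stayed the same held other members with limma-voom (Hk2 in place of Pdk2 in both LPS contrasts that called members) and library size (Slc2a1 in place of Gpi1). MOR-SAL vs SAL-SAL called 1 in hypothalamus (Gckr) with no filter, no sex term or without low-depth libraries. SAL-LPS vs SAL-SAL called 1 in cortex with DESeq2 (Pfkm), and the interaction 1 in hypothalamus without low-depth libraries (Pfkl). Female vs male called 0 in hippocampus with filterByExpr or limma-voom and 1 in hypothalamus with DESeq2. SAL-SAL libraries alone gave 21 isozyme ratios and 14, 19, 12, 6, 2 and 5 members for hypothalamus over hippocampus, cortex and striatum, hippocampus over cortex and striatum, and cortex over striatum. The LPS response between regions called 2 with DESeq2 size factors or without low-depth libraries, 3 with genes counted in all 4 tables and 0 with the animal as replicate block.

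Directions turned for hippocampus over cortex of Mdh2 (0.15 in SAL-SAL libraries, 0.044 with library size) and of Pfkl (0.32 and 0.10; Pfkl, hippocampus vs prefrontal cortex, without low-depth libraries 0.0005066), for hypothalamus over cortex of Slc2a1 (-0.14 in SAL-SAL libraries) and for hypothalamic Gckr in MOR-LPS vs SAL-LPS without number group 11 (0.088, and -0.68 to 0.088 over the number groups left out). Leaving out 1 number group, or 1 striatal morphine library, gave counts of 0 to 1 for LPS over both exposures in hypothalamus (number group 3) and cortex (number groups 1, 6, 10, 15 and 17), 1 to 1 in hippocampus and 0 to 2 in striatum, 0 to 1 for morphine over both challenges in hypothalamus (number group 6) and cortex (number groups 1, 4, 9 and 10), 0 to 1 for hypothalamic and 0 to 2 for striatal MOR-LPS vs MOR-SAL (0 without number group 14 or 15 or library 12-1), 0 to 2 for hypothalamic MOR-SAL vs SAL-SAL, 0 to 1 for female vs male in hippocampus and 0 to 2 in hypothalamus, and 0 to 1 for the interaction in hippocampus and hypothalamus. Library size as the only scaling moved the median log2FC of all genes by -0.17 to 0.26, most in the striatal interaction.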

Other observations

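Markers of other processes moved with the challenge in the hypothalamus of morphine-exposed animals. In MOR-LPS vs MOR-SAL 8 of 10 glucocorticoid response genes rose (background 6.27%), against 0 of 10 in SAL-LPS vs SAL-SAL (0.246%), and the interaction passed for 3 of 10 (background 3.8%, Klf9 1.61, Nfkbia 1.55 and Zbtb16 1.66). Pdk4, given above, is on this list. Astrocyte and oligodendrocyte markers rose in the same MOR-LPS vs MOR-SAL contrast, as given above, and their part was not tested. In MOR-LPS vs MOR-SAL 1 of 9 hypoxia response genes rose. Over both exposures 6 of 10 glucocorticoid response genes rose in hypothalamus (background 4.43%), 2 of 10 in hippocampus (3.82%) and 2 of 10 in striatum (Cdkn1a 2.00 and Fkbp5 0.80, 1.65%), and the same 2 passed in striatal MOR-LPS vs MOR-SAL (2.67 and 0.84, 1.39%). Over both exposures 4 of the 9 mitochondrially encoded genes fell in hypothalamus (background 4.43%). In hippocampus 5 of 9 mitochondrially encoded genes were lower in females than in males (background 2.51%), beside the higher Idh2.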
